A study of Rattus norvegicus with 17 samples.

Results

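The genes described here encode the nuclear subunits of the mitochondrial respiratory chain and of ATP synthase, read in neonatal rat cardiac myocyte cultures given plasma of people with kidney failure. They were chosen by name: symbols that start with Nduf (assembly factors named Ndufaf left out), Uqcr, Cox4 to Cox8 or Atp5, together with Sdha, Sdhb, Sdhc, Sdhd, Cyc1 and Cycs. Of 14506 measured genes, 78 met this rule, through 91 probe sets, and where a gene had several, the brightest over the 17 arrays was used. By complex, 33 belonged to complex I, 4 to complex II, 7 to complex III, 1 was cytochrome c, 17 belonged to complex IV and 16 to complex V. Ndufa4 was counted with complex IV, where its protein is now placed. Cyc1, Cox6b1, Cox7a1 and Ndufa4l2 are not analysed here, and neither are the 13 subunits encoded by mitochondrial DNA.

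All cultures were ventricular myocytes of Sprague-Dawley rats, listed as 5 days old in culture. Nocturnal hemodialysis (NHD) is long dialysis given overnight. In 6 samples the medium held 10% uremic plasma taken before NHD, in 6 it held 10% uremic plasma taken after NHD, 3 received control plasma, and 2 received phenylephrine (PE), which stimulates alpha-adrenergic receptors and drives hypertrophy of cultured myocytes. The labels give neither the share of control plasma nor the medium of the PE cultures, so that differences from control plasma also hold any difference in these. They call the samples biological replicates without naming cultures or donors, so that p-values measure only the spread between these samples. For 2 before NHD samples the title holds 2 replicate numbers, and the last was used.

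Expression was read on Affymetrix arrays, 1 for each sample, as log2 values from 1.28 to 14.29 with array medians of 6.89 to 7.03. The number of arrays limits the precision, most of all with PE. Mean levels of 14 ventricular myocyte markers ran from 12.57 to 13.14 over the 17 arrays, and the lowest of them, Mybpc3, had a mean of 11.51. Before NHD arrays scattered most for all genes, and the arrays nearest to each other were before replicate 4 and after replicate 4, from different groups. Results that rest on these 2 arrays are therefore also given without them.

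As background, complex I takes electrons from NADH and complex II from succinate, and both pass them to ubiquinone. Complex III hands them to cytochrome c, and complex IV, cytochrome c oxidase, passes them to oxygen. Complexes I, III and IV pump protons across the inner mitochondrial membrane, and complex V, the ATP synthase, uses the proton gradient to make ATP. The beating heart obtains most of its ATP in this way, and cardiac myocytes raise their mitochondrial content and switch several subunits to muscle isoforms as they mature after birth. Most subunits are nuclear genes, and the transcription factors NRF1, GABP (an ETS factor), YY1 and the ERR receptors are known regulators of many of them.

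Many subunit RNAs were called higher with uremic plasma from after NHD than with control plasma, and none was called lower. Each complex held such calls, but complex II only 1 of 4, Sdha, and this call was lost without control replicate 1 or 3. A gene was called at an adjusted p below 0.05 (limma, Benjamini-Hochberg over all 29214 probe sets). After NHD, 35 of the 78 members were called higher than control plasma and 0 lower (1 lower at an unadjusted p below 0.05), where 16.7% of all genes were called higher and 16.3% lower. Before NHD, 6 were called higher and 0 lower (1 lower at an unadjusted p below 0.05), where 3.75% of all genes were called higher and 2.09% lower. With PE, 12 were called higher and 2 lower, beside 11.7% and 11.9% of all genes. Ventricular myocyte markers (8 of 14) and cell division markers (11 of 13) were also called higher after NHD than with control plasma, and their part in the subunit differences was not tested. These 3 comparisons share the same 3 control arrays. Between after and before NHD no member was called in either direction, beside 0.379% of all genes called higher and 0.103% lower. That background is itself unstable: of all genes, 0 were called when before replicate 1, 2 or 3 or after replicate 1, 2, 3, 5 or 6 was left out, and 820 higher and 852 lower without before replicate 6.

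**Figure D1:**
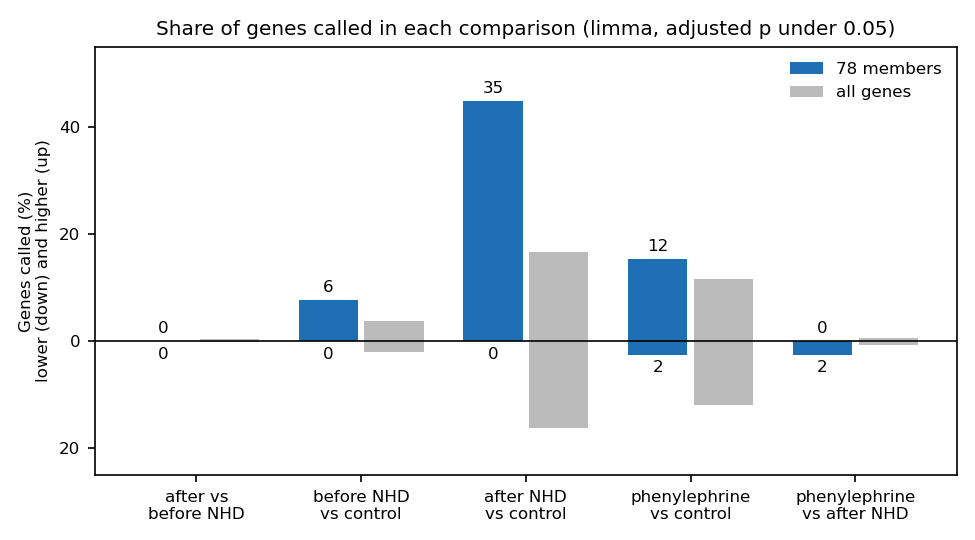
Percent of genes called higher (up) or lower (down) in each comparison, for the 78 subunit genes (blue, with the number called) and for all 14506 genes (grey). After NHD against control plasma, 35 members were called higher and 0 lower, while all genes split almost evenly between both directions.

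Upstream sequences are shown for the 5 members that were called higher in each comparison with control plasma. This choice depends on their before NHD calls, which changed with single arrays. Of 17 fits that each left out 1 array, Cox7a2l was called there in 15 and Uqcrc2 in 14. Ndufs1 and Atp5mc2 were called in 3 and Atp5f1d in 2. Uqcrc2 is a core protein of complex III, Ndufs1 an iron-sulfur subunit of complex I, Atp5mc2 a gene for the c subunit of the ATP synthase rotor, Atp5f1d the delta subunit of its central stalk, and Cox7a2l a factor that joins complexes III and IV into supercomplexes. Each line gives the 250 bases before the listed start of transcription, read in the direction of the gene, from RefSeq (GRCr8). Capitals mark matches on either strand to the NRF1 core GCATGCGC or the ETS core CCGGAAG, whose reverse complement reads CTTCCGG.
Uqcrc2 (chr1:184598990-184599239, plus strand): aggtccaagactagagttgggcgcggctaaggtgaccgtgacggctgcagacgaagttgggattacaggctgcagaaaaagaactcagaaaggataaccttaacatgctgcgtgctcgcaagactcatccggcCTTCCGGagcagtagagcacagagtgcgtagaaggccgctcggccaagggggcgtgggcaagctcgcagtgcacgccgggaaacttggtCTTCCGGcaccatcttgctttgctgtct
Ndufs1 (chr9:72073606-72073855, minus strand): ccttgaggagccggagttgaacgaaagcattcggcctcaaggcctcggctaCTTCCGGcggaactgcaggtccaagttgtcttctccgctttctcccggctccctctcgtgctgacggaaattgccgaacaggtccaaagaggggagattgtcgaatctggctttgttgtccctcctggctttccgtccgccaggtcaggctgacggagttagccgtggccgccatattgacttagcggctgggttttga
Atp5mc2 (chr7:135678219-135678468, minus strand): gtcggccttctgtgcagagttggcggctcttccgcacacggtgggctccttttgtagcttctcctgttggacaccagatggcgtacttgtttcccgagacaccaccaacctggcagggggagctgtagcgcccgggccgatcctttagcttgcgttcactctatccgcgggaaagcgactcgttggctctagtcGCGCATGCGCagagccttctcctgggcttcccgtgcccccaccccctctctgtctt
Atp5f1d (chr7:10214351-10214600, minus strand): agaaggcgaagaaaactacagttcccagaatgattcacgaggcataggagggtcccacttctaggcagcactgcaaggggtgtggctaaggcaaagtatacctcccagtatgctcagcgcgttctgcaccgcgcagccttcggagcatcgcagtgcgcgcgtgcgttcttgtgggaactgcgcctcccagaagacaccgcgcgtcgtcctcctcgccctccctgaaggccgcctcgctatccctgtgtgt
Cox7a2l (chr6:16936324-16936573, plus strand): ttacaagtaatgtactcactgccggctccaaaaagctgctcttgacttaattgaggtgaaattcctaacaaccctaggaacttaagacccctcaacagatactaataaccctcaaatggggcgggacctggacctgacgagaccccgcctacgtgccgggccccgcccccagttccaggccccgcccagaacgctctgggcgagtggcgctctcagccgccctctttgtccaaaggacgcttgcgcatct
The Uqcrc2 window held the ETS core at positions -117 and -28 and that of Ndufs1 at -199, each on the opposite strand, counted back from the base before the start. The capitals of Atp5mc2 are overlapping matches to the NRF1 core on both strands, from -56 and from -54. None of the letters searched was found in the Atp5f1d and Cox7a2l windows.

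Such windows were found for 68 of the 78 members, each with 1 listed start. The NRF1 core was in 10 of the 68 (14.7%), against 2.38% of all 27457 genes with a window and 3.54% of the 11951 of them that the arrays measured. The ETS core was in 19 (27.9%), against 7.74% and 11.2%. The YY1 core AAGATGGC was in 2 members (2.94%) against 1.69% and 1.79%, and the ERR response element CAAGGTCA in 2 (2.94%) against 1.30% and 0.895%. Among the 34 windows of members called higher after NHD than with control plasma, 17.6% held the NRF1 core and 26.5% the ETS core. Among the 34 of members not called there, the shares were 11.8% and 29.4%. These are matches of letters in a fixed window, on both strands, and no binding was measured. Members with the NRF1 core included Cycs (at -157) and Uqcrc1 (at -39).

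On the level of whole arrays, the median member stood 0.044 to 0.38 log2 units above the control mean on the before NHD arrays and 0.058 to 0.53 above it on the after NHD arrays. On the 3 control arrays it lay between -0.019 and 0.011, and on the 2 PE arrays at 0.12 and 0.19. The before NHD arrays fell apart into 2 that were high (replicates 2 and 6, at 0.35 and 0.38) and 4 that were near control (at 0.044 to 0.092). After NHD replicate 4, at 0.058, lay among those 4, and the other 5 after NHD arrays at 0.23 or above. The median of all genes lay between -0.10 and 0.019 on the before NHD arrays and between -0.089 and -0.041 on the after NHD arrays. Replicate 6 was the highest before NHD array for 44 members and replicate 2 for 30, while replicate 5 was the lowest for 30 and replicate 4 for 20.

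**Figure D2:**
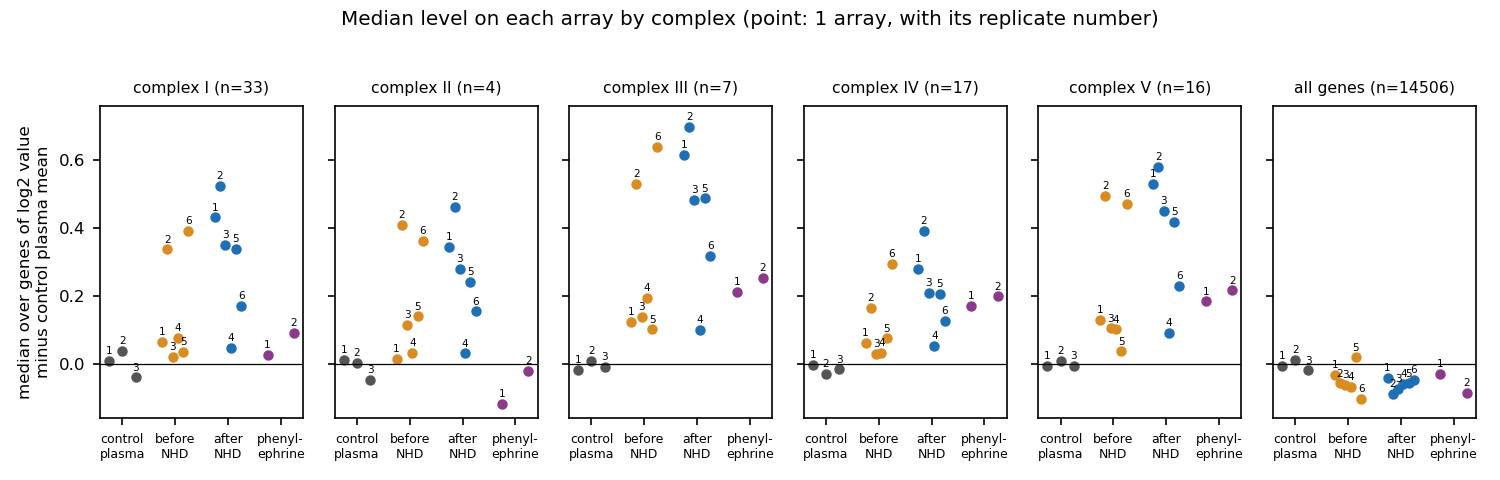
Median over the genes of each complex, and over all genes, of the log2 value minus the control plasma mean, for each of the 17 arrays (points, with replicate numbers). Before NHD replicates 2 and 6 stand among the after NHD arrays in each complex, and after NHD replicate 4 stands near the control arrays.

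Members were tight with control plasma, with a median SD of 0.055 log2 units over the 3 arrays, against 0.13 for all genes. With PE the median SD was 0.033 (2 arrays), before NHD 0.21 and after NHD 0.18. All genes had a median SD of 0.26 before and 0.16 after NHD, so that members spread less than all genes on the control and before NHD arrays and slightly more after NHD. Many members are near the top of the scale. The 39 brighter members (mean of 11.81 or above) were among the 462 genes of that brightness, and their median difference after NHD from control was 0.24, against 0.39 for the 39 dimmer members. Whether the ceiling of the arrays compressed the differences of bright members was not tested. Of the brighter members 16 were called higher, and of the 462 genes of that brightness 117; of the dimmer members 19, and of the other 14044 genes 2311.

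The comparison of after NHD with control plasma set uremic plasma taken after NHD beside control plasma. Of the 5 complexes, complex III had the largest share of its members called higher, 6 of 7, with a median difference of 0.45 log2 units. Uqcrc2 read 11.14, 11.24 and 11.16 on the control arrays and 12.39 to 12.97 (median 12.76) on the after NHD arrays. Every after NHD array was above every control array, and the difference was 1.55 ± 0.22 (adjusted p = 0.00042), the largest of all members and 2.92-fold. Uqcr11, a small accessory subunit, read 11.79, 11.65 and 11.77 with control plasma and 12.08 to 12.72 (median 12.50) after NHD, again without overlap (0.76 ± 0.16, adjusted p = 0.0029). Uqcrfs1, the Rieske iron-sulfur protein (0.45 ± 0.15), the core protein Uqcrc1 (0.39 ± 0.12), the hinge protein Uqcrh and the ubiquinone-binding subunit Uqcrq were called higher as well. These calls were less firm, and the groups of Uqcrq overlapped. Of 17 fits that each left out 1 array, Uqcrc1 was called in 15, Uqcrh in 12, Uqcrfs1 in 11 and Uqcrq in 6. Uqcrc2 and Uqcr11 were called in all 17. Uqcrb stood apart at -0.047 ± 0.068 and was not called. All 3 of its probe sets read between -0.047 and -0.036. Uqcr10 is not analysed here.

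In complex I, 13 of 33 members were called higher and 0 lower, with a median of 0.32. Ndufs1, Ndufv1 and Ndufs7 were the called ones among the 6 measured core subunits, the group that holds the NADH site and the iron-sulfur clusters. Ndufs1 read 11.17, 11.12 and 11.18 with control plasma and 11.74 to 12.32 (median 12.13) after NHD, without overlap (0.94 ± 0.16, adjusted p = 0.00078). Ndufv1, which binds NADH and flavin, read 11.46, 11.48 and 11.36 with control plasma and 11.80 to 12.59 (median 12.34) after NHD, without overlap (0.85 ± 0.17, adjusted p = 0.0024). The values of Ndufs7, which carries the last iron-sulfur cluster before ubiquinone, were 12.63, 12.62 and 12.62 and 13.04 to 13.24 (median 13.18), a difference of 0.54 ± 0.10. The other 3 core subunits were not called: Ndufv2 differed by 0.24 ± 0.090, Ndufs3 by -0.086 ± 0.10 and Ndufs8 by -0.21 ± 0.20.

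Among 27 accessory subunits of complex I, 10 were called higher. Ndufa3 (1.13 ± 0.23), Ndufab1 (1.13 ± 0.19) and Ndufa10 (1.07 ± 0.31) had the largest differences, and Ndufab1 is also the mitochondrial acyl carrier protein used in fatty acid and lipoic acid synthesis. Ndufab1 read 11.55, 11.66 and 11.53 with control plasma and 12.63 to 12.84 (median 12.70) after NHD, so that the after NHD arrays lay close together and clear of control. Ndufa10 was less even, at 6.97, 7.66 and 6.84 on the control arrays, and its call (adjusted p = 0.016) was lost without control replicate 1 or 3 (highest adjusted p = 0.091). A second probe set that names Ndufa10 together with Ndufa10l1 was left out. Ndufa2, Ndufa5, Ndufb3, Ndufb10, Ndufc2, Ndufs4 and Ndufs5 were also called, at 0.37 to 0.75. Of 17 fits that each left out 1 array, Ndufb3 was called in 10, Ndufs4 in 11 and the others just named in all 17. The groups of Ndufb3 overlapped. The 20 members of complex I that were not called ran from -0.25 for Ndufb2 to 0.37 for Ndufv3.

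Complex II, which is also the succinate dehydrogenase of the citric acid cycle, had 1 of 4 members called. Sdha, its flavoprotein, read 11.26, 11.30 and 11.23 with control plasma and 11.40 to 11.92 (median 11.70) after NHD and differed by 0.42 ± 0.13 (adjusted p = 0.02). The call of Sdha was lost without control replicate 1 or 3 (highest adjusted p = 0.074). The iron-sulfur subunit Sdhb (0.15 ± 0.10) and the membrane anchors Sdhc (0.083 ± 0.088) and Sdhd (0.34 ± 0.13) were not called. Cytochrome c, Cycs, read 12.67, 12.65 and 12.74 and 12.93 to 13.13 (median 13.10), without overlap, and was called higher by 0.38 ± 0.083 (adjusted p = 0.0035). Its second probe set was called too, at 0.42.

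In complex IV, 7 of 17 members were called higher and 0 lower, and the differences were uneven between isoforms. Cox7a2l read 10.17, 10.32 and 10.26 with control plasma and 11.19 to 11.74 (median 11.56) after NHD, without overlap, and differed by 1.27 ± 0.16 (adjusted p = 0.00042). Cox6b2, known as the testis isoform of subunit VIb, read 6.60, 6.34 and 6.28 and 6.77 to 8.03 (median 7.72) and differed by 1.21 ± 0.28 (adjusted p = 0.0052). Its level was modest, and the lowest after NHD array, replicate 4, lay just above the highest control array. Cox8b, a heart and skeletal muscle isoform, differed by 1.24 ± 0.45, but its after NHD arrays ran from 9.03 to 11.37 (median 10.56) around controls at 9.21, 9.16 and 9.27. The groups of Cox8b overlapped, and it was called under only 3 of the 17 fits that each left out 1 array (without before replicates 4 and 6 and after replicate 4).

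The small subunits Cox7c (0.70 ± 0.13), Cox7b (0.69 ± 0.18) and Cox5b, and Ndufa4 (0.58 ± 0.13), were the other called members of complex IV. Cox5b was called in 10 of the 17 fits that left out 1 array. Ndufa4 read 12.74, 12.64 and 12.82 with control plasma and 12.94 to 13.51 (median 13.38) after NHD, without overlap. The isoforms Cox4i1 (0.13 ± 0.11), Cox6a1 (0.062 ± 0.077), Cox7a2 (0.14 ± 0.088) and Cox8a (0.062 ± 0.071), which are present in most tissues, were not called. Neither was Cox6a2, the heart and muscle partner of Cox6a1, at 0.10 ± 0.10, with 13.13, 13.01 and 13.06 on control and 12.97 to 13.33 (median 13.16) on after NHD arrays. Cox4i2, an isoform known from lung and induced by low oxygen, differed by 0.91 ± 0.40 (adjusted p = 0.097) with after NHD arrays spread over 6.58 to 8.60 (median 8.05). After NHD replicate 4 lay below its controls, replicate 6 next to the highest of them and the other 4 above, and it was not called.

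In complex V, 7 of 16 members were called higher and 0 lower, with a median of 0.35. Of the catalytic F1 part, the delta subunit Atp5f1d read 12.66, 12.76 and 12.70 with control plasma and 13.71 to 13.81 (median 13.77) after NHD. The 6 after NHD arrays lay close together and clear of control, and the difference was 1.06 ± 0.18 (adjusted p = 0.00084). The alpha subunit Atp5f1a (0.43 ± 0.12) was called and the beta subunit Atp5f1b (0.13 ± 0.068) was not, although together they form the catalytic ring. Atp5f1b read 13.23, 13.28 and 13.18 on the control arrays and 13.31 to 13.42 (median 13.36) after NHD, close to the top of the scale. The call of Atp5f1a was lost when any 1 of the 3 control arrays was left out (highest adjusted p = 0.061).

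Of the 3 genes that encode the same mature c subunit, Atp5mc2 was called (0.86 ± 0.17, adjusted p = 0.0018), with 11.55, 11.60 and 11.54 on control and 12.05 to 12.66 (median 12.44) on after NHD arrays, and its second probe set was called at 0.69. Atp5mc1 (0.39 ± 0.22) and Atp5mc3 (0.26 ± 0.11) were not called. Atp5po, the protein that ties the peripheral stalk to the catalytic head (0.67 ± 0.17), and the membrane subunits Atp5me and Atp5mg, which help ATP synthase form dimers, were called. Atp5me was called in 13 and Atp5mg in 12 of the 17 fits that left out 1 array. The other 3 stalk subunits, Atp5pb, Atp5pd and Atp5pf, were not called, at -0.032 to 0.28. Atp5if1, the inhibitor that stops the enzyme from burning ATP when respiration fails, read 10.91, 10.88 and 10.92 with control plasma and 11.07 to 11.87 (median 11.66) after NHD and was called higher (0.69 ± 0.15, adjusted p = 0.0035).

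**Figure D3:**
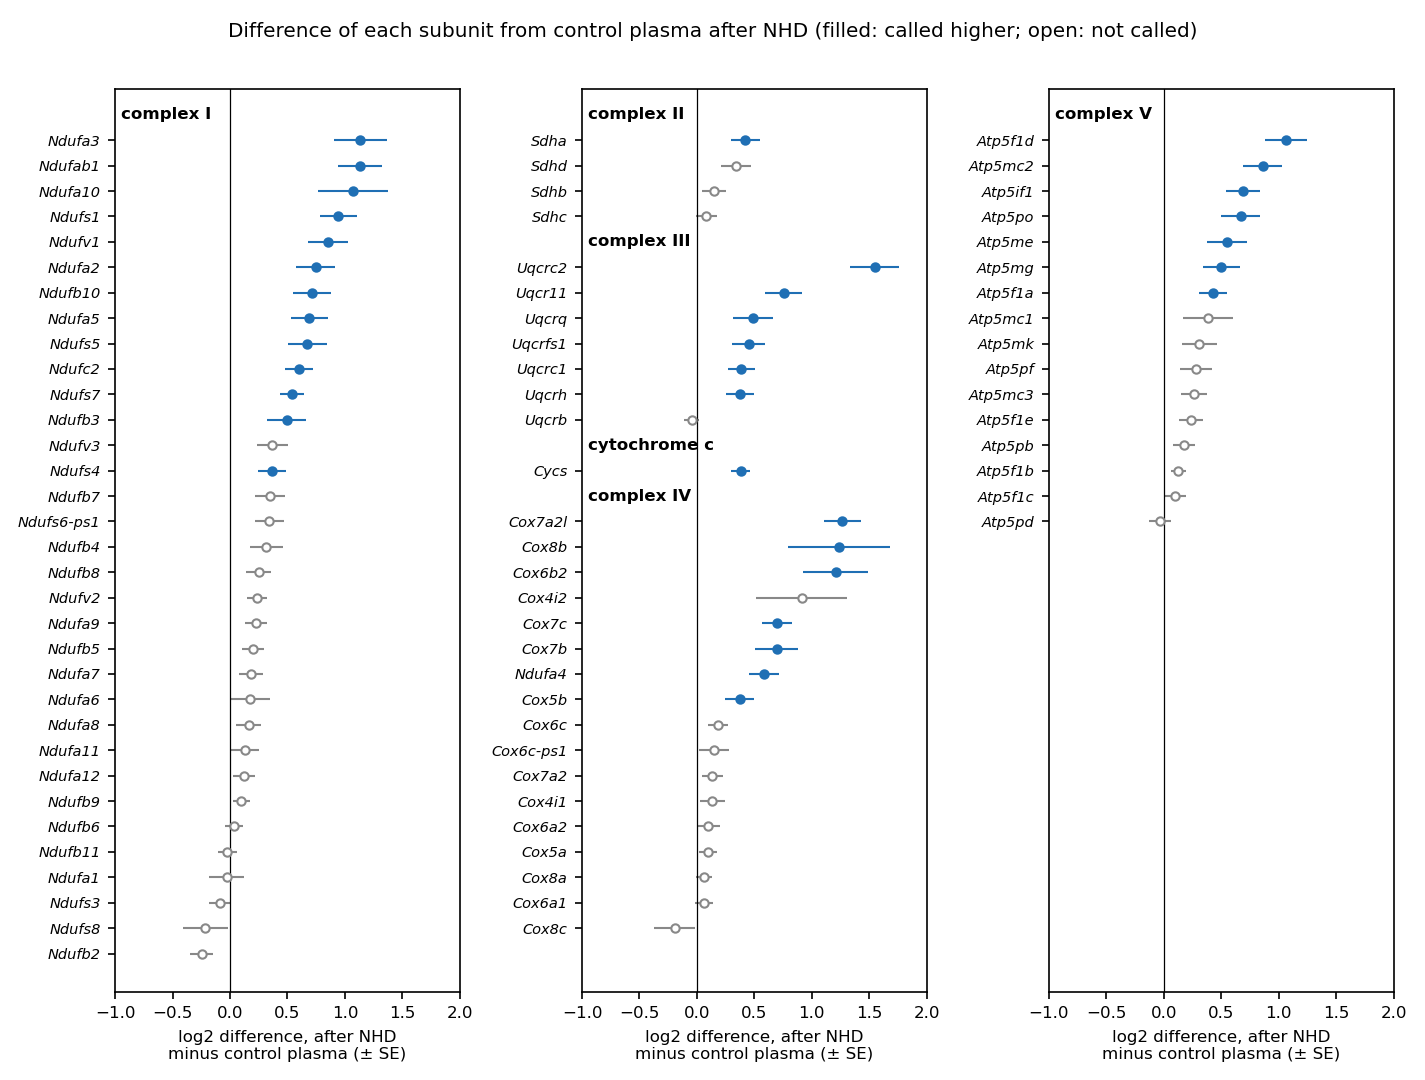
Log2 difference of each of the 78 members between after NHD and control plasma, with its standard error, grouped by complex. Filled points are the 35 members called higher, and 70 of the 78 lie to the right of 0.

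Counted without a test, 40 of 78 members (51.3%) had all after NHD arrays above all control arrays and 0 had them all below. Of all genes, 18.5% were above in this way and 19.6% below. The median difference of the 78 members was 0.34 (1.27-fold), against -0.066 for all genes. Of the 35 calls, 22 held in each of the 17 fits that left out 1 array. Without control replicate 1 or control replicate 3 the number called was 22 in each case, 46 without after NHD replicate 4, and 47 without both samples numbered 4. Of all genes, 1493 and 1561 were called higher in the first pair of these fits, 2491 in the next and 2773 in the last, against 2428 with all arrays. The array SD, meaning the SD of all log2 values of 1 array, was 2.24, 2.32 and 2.25 on the control arrays and 2.32 to 2.34 on the after NHD arrays. With array SD as a term in the fit, 15 members were called, all higher, and of all genes 1009 were called higher. The calls thus fell for members and all genes alike, and the part of array SD in the result was not tested further.

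The next comparison set uremic plasma taken before NHD beside control plasma. The 6 members called higher were Cox7a2l (1.13 ± 0.16, adjusted p = 0.014), Uqcrc2 (0.99 ± 0.22, adjusted p = 0.026), Atp5f1d (0.66 ± 0.18, adjusted p = 0.048), Atp5mc2 (0.63 ± 0.17, adjusted p = 0.045), Uqcr11 (0.58 ± 0.16, adjusted p = 0.047) and Ndufs1 (0.57 ± 0.16, adjusted p = 0.048). For Cox7a2l the before NHD arrays read 10.90 to 11.72 (median 11.33), all above the controls. For Uqcrc2 they read 11.44 to 12.79 (median 12.25), also all above, with replicate 5 nearest to control. Those of Atp5f1d were spread from 12.67 to 13.80 (median 13.50), and the lowest, replicate 5, lay among the controls.

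Uqcr11 read 12.02 to 12.68 (median 12.26), Atp5mc2 11.73 to 12.70 (median 12.18) and Ndufs1 11.32 to 12.23 (median 11.75) before NHD, each clear of its control arrays. The second probe set of Atp5mc2 read 0.42 and was not called (adjusted p = 0.087). The median of the 78 members was 0.16, against -0.048 for all genes, and 68 of 78 differences were above 0. Members of complex II and cytochrome c were not called, with Sdha at 0.27 ± 0.13 and Cycs at 0.21 ± 0.083, and neither were Ndufv1 (0.57 ± 0.17, adjusted p = 0.068) and Atp5if1 (0.54 ± 0.15, adjusted p = 0.051). None of the 6 calls held in all 17 fits that left out 1 array. The number called was 0 without control replicate 1 or 3 (18 and 17 at an unadjusted p below 0.05), 1 without before replicate 2, 3 without before replicate 1, 19 without before replicate 5, and 2 without before replicate 4 or 6, control replicate 2, either PE array or any after NHD array but replicate 4. It was 9 without both samples numbered 4. Of all genes, 544 were called higher with all arrays, 0 without control replicate 1 or 3, 106 without before replicate 2 and 1460 without before replicate 5. With array SD as a term, 0 members were called (13 at an unadjusted p below 0.05), and of all genes 1 was called higher.

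After against before NHD is the comparison within uremic plasma, and it uses no control array. The median member was 0.15 log2 units higher after NHD (-0.0053 for all genes), and 69 of 78 differences were above 0. No member was called with limma. At an unadjusted p below 0.05, 15 were higher and 0 lower. The smallest p-values belonged to Ndufs7 (0.32 ± 0.085, adjusted p = 0.082), Ndufab1 (0.58 ± 0.16, adjusted p = 0.085), Uqcrc2 (0.56 ± 0.18, adjusted p = 0.11), Cox6b2 (0.70 ± 0.23, adjusted p = 0.12) and Ndufb10, an accessory subunit of the membrane arm (0.39 ± 0.13, adjusted p = 0.13). Ndufs7 read 12.62 to 13.14 (median 12.83) before and 13.04 to 13.24 (median 13.18) after NHD, and 1 before NHD array, replicate 6, lay within the after NHD range.

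Ndufab1 read 11.62 to 12.67 (median 12.13) before NHD against 12.63 to 12.84 (median 12.70) after it, with before replicates 4 and 6 among the after NHD arrays. Uqcrc2 read 11.44 to 12.79 (median 12.25) and 12.39 to 12.97 (median 12.76), with before replicates 2, 4 and 6 within the after NHD range. Cox6b2 read 6.36 to 7.81 (median 6.75) before and 6.77 to 8.03 (median 7.72) after NHD, with after replicate 4 down among the before NHD arrays. The calls depended on the arrays in the fit: 10 members were called higher without before replicate 6, 3 without before replicate 4, 1 (Cox6b2) without after replicate 4, and 7 without both samples numbered 4. The calls over all 14506 genes rose in the same fits, to 820 higher, 711 higher, 189 higher and 704 higher (852, 890, 225 and 938 lower), so that the 3 members without before replicate 4 and the 1 without after replicate 4 are no larger a share than all genes gave. Ndufs7 was among those called in the first, second and last of these fits, at 0.38, 0.35 and 0.38, and so were Ndufab1 and Uqcrc2.

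The differences of further members between before and after NHD were not called either. Ndufs1 differed by 0.37 ± 0.13, Ndufv1 by 0.28 ± 0.14, Sdha by 0.15 ± 0.10, Uqcrc1 by 0.17 ± 0.10, Uqcrfs1 by 0.12 ± 0.12 and Cycs by 0.17 ± 0.068. In complex IV, Cox4i1 differed by 0.017 ± 0.088, Cox6a1 by 0.040 ± 0.063, Cox7a2 by 0.10 ± 0.072 and Cox8a by -0.022 ± 0.058. In complex V, Atp5f1a differed by 0.089 ± 0.10, Atp5f1b by 0.029 ± 0.055 and Atp5if1 by 0.15 ± 0.12. A difference that was not called may still exist, and the standard errors show how large it could be.

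Phenylephrine is the growth stimulus among the groups, and with it subunits were called in both directions. Cox6b2 had the largest difference from control plasma, at 8.68 and 8.53 on the PE arrays against 6.60, 6.34 and 6.28 (2.20 ± 0.37, adjusted p = 0.0012). Atp5if1 read 12.20 and 12.16 against 10.91, 10.88 and 10.92, a difference of 1.27 ± 0.19 (adjusted p = 0.00073), and the PE arrays were above all other arrays of the study. Uqcrc2 (1.45 ± 0.28), Cox7a2l (1.17 ± 0.21), Atp5mc2 (0.94 ± 0.22), Atp5f1d (0.91 ± 0.23), Ndufs1 (0.88 ± 0.20), Ndufab1 (0.73 ± 0.25), Ndufv1 (0.67 ± 0.23), Cox7c (0.64 ± 0.17), Ndufa4 (0.63 ± 0.17) and Ndufc2 were also called higher. Ndufab1 and Ndufv1 were less firm, called in 4 and 7 of the 17 fits that left out 1 array. With array SD as a term in the fit, neither was called.

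The 2 members called lower with PE were Ndufs3, a core subunit of the arm of complex I that reaches into the matrix, and Cox6a1. Ndufs3 read 11.19 and 11.29 with PE against 11.95, 11.95 and 11.84 with control plasma (-0.67 ± 0.12, adjusted p = 0.002), and the PE arrays were below all others. Cox6a1 read 12.71 and 12.71 against 13.07, 13.10 and 13.06 (-0.37 ± 0.10, adjusted p = 0.018), likewise below every other array. The median member was 0.14 above control (-0.061 for all genes), and 26 of 78 differences were below 0, 15 of them in complex I. Only the spread of 2 arrays stands behind the PE values, so that the fit relies on that of the other groups. With 1 PE array left out, whichever it was, calls were lost among members and among all genes alike. Uqcrc2, Cox7a2l, Atp5if1, Cox6b2 and Ndufs3 kept their calls in all 17 fits that left out 1 array.

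Other members were not called with PE. The catalytic beta subunit Atp5f1b (0.038 ± 0.088), Cox4i1 (0.058 ± 0.14), Cox6a2 (0.18 ± 0.13), Cox7a2 (0.22 ± 0.11), Uqcrc1 (0.064 ± 0.15), Uqcrfs1 (0.10 ± 0.19) and Cycs (0.20 ± 0.11) were among these. So were the 4 complex II genes, at -0.19 for Sdhb to 0.28 for Sdha. Cox8b read 10.37 and 10.75, above its controls, but was not called (1.35 ± 0.58, adjusted p = 0.11). The 2 probe sets of Ndufv3 differed in sign, at 0.22 for the brighter and -0.28 for the dimmer, and neither was called.

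A direct comparison of PE with after NHD, added after the data were seen, asked which members differed between them. Ndufs3 (-0.59 ± 0.11, adjusted p = 0.016) and Cox6a1 (-0.43 ± 0.089, adjusted p = 0.028) were called lower with PE and 0 members higher (2 at an unadjusted p below 0.05), beside 0.689% and 0.662% of all genes. The after NHD arrays of Ndufs3 read 11.73 to 12.00 (median 11.81) and those of Cox6a1 13.06 to 13.24 (median 13.12). Both calls were lost when 1 PE array was left out (7 and 13 members had an unadjusted p below 0.05), and that of Cox6a1 also without after replicate 2 or 4. Atp5if1 (0.59 ± 0.17, adjusted p = 0.14) and Cox6b2 (0.99 ± 0.33, adjusted p = 0.19) were higher on both PE arrays than on every after NHD array but were not called. Of the 78 members, 66 had a lower mean with PE, with a median of -0.18, against -0.0020 for all genes. In complex I these were 32 of 33 (median -0.23), in complex II 4 of 4 (-0.27) and in complex III 7 of 7 (-0.14). In complex V they were 13 of 16 (-0.14) and in complex IV 9 of 17 (-0.064).

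**Figure D4:**
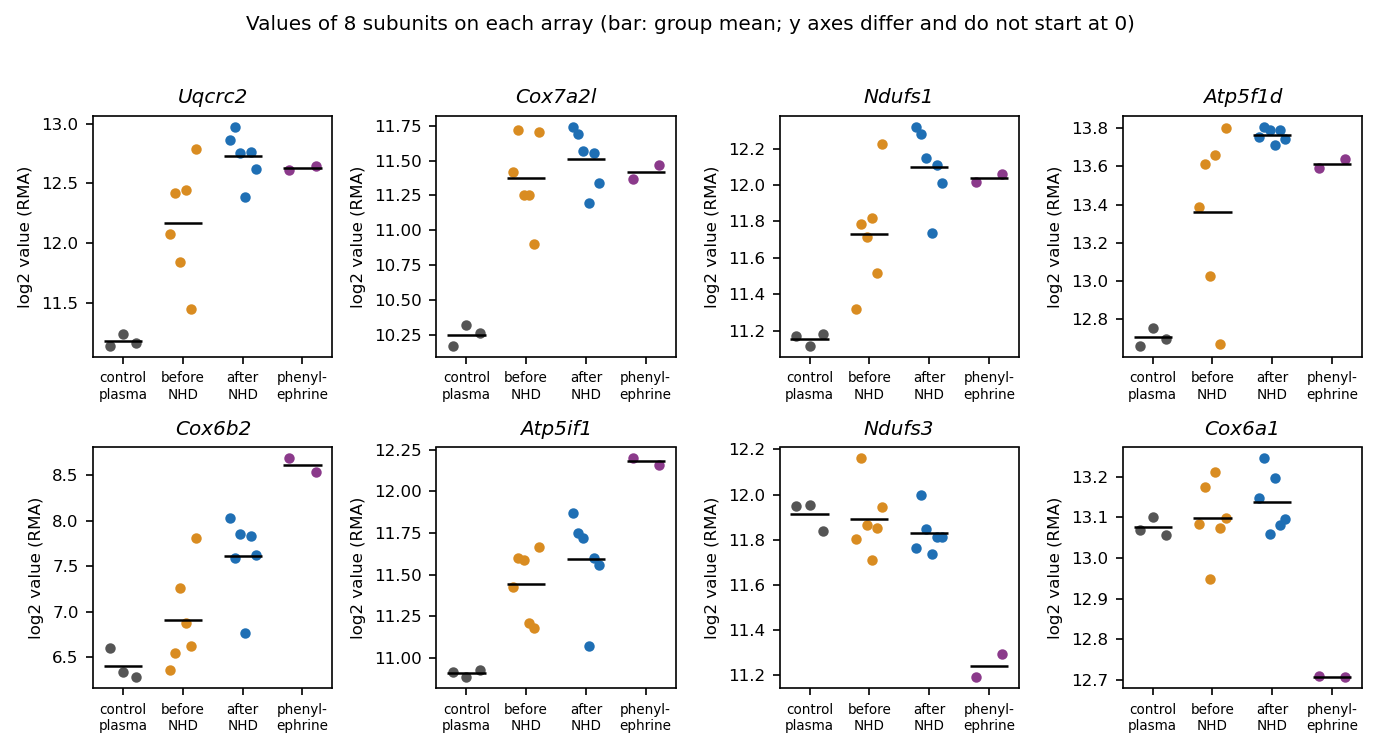
Log2 values of 8 members on each of the 17 arrays, with bars at the group means; each y axis has its own range and does not start at 0. Uqcrc2, Cox7a2l and Ndufs1 lie above control in all 3 other groups, Atp5f1d does so but for 1 before NHD array, and Ndufs3 and Cox6a1 are low only on the 2 PE arrays.

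Genes that build the complexes were called in both directions. So were all genes, at 16.7% higher and 16.3% lower after NHD and 11.7% and 11.9% with PE, each against control plasma. Of 8 measured complex I assembly factors, 2 were called higher after NHD than with control plasma and 2 lower. Ndufaf1 (2.21 ± 0.36) and Ndufaf3 (1.30 ± 0.22) were the higher ones, Timmdc1 (-0.49 ± 0.13) and Tmem186 (-0.28 ± 0.10) the lower. The call of Tmem186 held in only 3 of the 17 fits that left out 1 array. With PE, 2 were called higher and 4 lower, among them Ndufaf4 (-1.04 ± 0.21). Of 23 assembly factors of complexes II to V, 8 were called higher and 5 lower after NHD, and 0 higher and 8 lower with PE. Atpaf2 (1.42 ± 0.22) and Atpaf1 (1.03 ± 0.18), chaperones of the F1 part, and Bcs1l (1.40 ± 0.28), which inserts the Rieske protein into complex III, were among the higher after NHD. Sdhaf1, which helps load iron-sulfur clusters into complex II, was lower both after NHD (-0.85 ± 0.17) and with PE (-1.39 ± 0.22), and so was Cox11, a copper chaperone of complex IV (-0.58 ± 0.13 and -1.03 ± 0.17).

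Before NHD, 3 of the 23 factors were called higher, Atpaf2 (0.87 ± 0.22), Atpaf1 (0.66 ± 0.18) and Coa3 (0.67 ± 0.18), and Cox20 lower (-0.54 ± 0.11); 0 of the 8 complex I factors were called. With 1 array left out, Atpaf1 was called in 3 of 17 fits, Coa3 in 4, Atpaf2 in 11 and Cox20 in 15. List medians after NHD were 0.039 and 0.16, and with PE -0.33 and -0.29. Between after and before NHD none of either list was called.

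Carriers that supply ATP synthase with its substrates were called higher only. Of 12 genes for phosphate and adenine nucleotide transport, 8 were called higher and 0 lower after NHD, with a median of 0.43. The shares of all genes called there were 16.7% higher and 16.3% lower, and with PE 11.7% and 11.9%. Vdac2 (1.45 ± 0.18) and Vdac1 (0.51 ± 0.11) are the pores of the outer membrane, Slc25a5 (0.35 ± 0.084) exchanges ATP for ADP, and Slc25a23 (2.22 ± 0.43) carries ATP-Mg and phosphate. Vdac2 (1.11 ± 0.18) and Vdac1 (0.39 ± 0.11) were also called before NHD, in 15 and 2 of the 17 fits that left out 1 array, and 4 of the 12 were called higher with PE. Of 8 enzymes that feed ubiquinone by other routes, 4 were called higher after NHD, among them Prodh, proline dehydrogenase (2.07 ± 0.51), Sqor, which oxidises hydrogen sulfide (1.63 ± 0.37), and Etfdh, which takes electrons from fatty acid oxidation (0.83 ± 0.23). With PE, Sqor was called higher (1.71 ± 0.47) and the glycerol phosphate dehydrogenase Gpd2 lower (-0.78 ± 0.23).

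Of 12 genes of coenzyme Q synthesis, 3 were called higher and 1 lower after NHD: Coq3 (1.44 ± 0.30), Pdss2 (0.72 ± 0.16) and Coq5 (0.68 ± 0.20) against Coq4 (-0.40 ± 0.11). The shares of all genes were 16.7% higher and 16.3% lower after NHD, and 11.7% and 11.9% with PE. Coq4 was also called lower before NHD (-0.51 ± 0.11), but not without control replicate 1 or 3, where 0 of all genes were called. With PE, 1 of the 12 was higher and 3 lower. Of 6 uncoupling protein genes, Ucp2 (1.89 ± 0.38) and Slc25a30 (0.40 ± 0.12) were called higher after NHD, and Slc25a30 with PE (1.15 ± 0.15).

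Among 14 regulators of mitochondrial biogenesis, 3 were called higher and 2 lower after NHD, close to the 16.7% and 16.3% of all genes. Ppargc1b, a coactivator of the ERR receptors (1.08 ± 0.16), Ppara, the fatty acid sensor (0.98 ± 0.26), and Esrrb (0.80 ± 0.27) were the higher ones. Gabpa, the DNA-binding subunit of GABP (-0.70 ± 0.12), and Hcfc1 (-0.39 ± 0.14) were the lower ones. Ppargc1b was also called before NHD (0.91 ± 0.16), and with PE Esrrg was higher (0.85 ± 0.27) and Gabpa (-0.85 ± 0.15) and Hcfc1 (-0.85 ± 0.18) were lower. With PE, 11.7% of all genes were called higher and 11.9% lower. Of 16 genes that copy and transcribe mitochondrial DNA, 3 were higher and 6 lower after NHD, and 2 higher and 7 lower with PE. Lrpprc, which stabilises mitochondrial messengers, was higher (1.56 ± 0.23), while the helicase Twnk (-1.21 ± 0.19), the polymerase subunit Polg2 (-1.11 ± 0.22) and the transcription factor relatives Mterf3 (-1.41 ± 0.21) and Mterf1 (-1.21 ± 0.22) were lower. Before NHD, 2 of these 16 were called in each direction, beside 3.75% of all genes higher and 2.09% lower. Like the before NHD call of Ppargc1b, they were lost without control replicate 1 or 3, where 0 of all genes were called.

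Markers of cell types moved with some of these comparisons. In bulk samples, fewer cells of a type and less RNA per cell cannot be told apart. Of 14 ventricular myocyte markers, 8 were called higher and 0 lower after NHD than with control plasma, and their mean level was 12.98 to 13.14 on the after NHD arrays and 12.57 to 12.58 on the control arrays. On the before NHD arrays it was 12.60 to 13.04, with 3 markers called higher, and with PE 12.92 to 12.93, with 4 called higher. Of all genes, 16.7% were called higher after NHD, 3.75% before NHD and 11.7% with PE, each against control plasma. Between after and before NHD the share was 0.379%. The 3 before NHD calls were lost without control replicate 1 or 3, where 0 of all genes were called. Of 13 cell division markers, 11 were called higher after NHD and 11 with PE, and 9 after against before NHD, with mean levels of 7.64 to 7.65 with control plasma, 7.08 to 9.27 before NHD, 9.22 to 10.08 after NHD and 10.04 to 10.53 with PE. Between after and before NHD, the calls of Ccnb2, Kif20a, Plk1 and Top2a held in 9 of 17 fits, and were lost without before replicate 1, 2 or 3 or after replicate 1, 2, 3, 5 or 6.

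Of 15 fibroblast markers, 2 were called higher after NHD and 2 with PE, and their mean level ran from 7.55 to 9.76 before NHD, 7.79 to 9.67 after NHD, 8.41 to 8.50 with control plasma and 9.80 to 10.00 with PE. Those counts are close to the shares of all genes called higher, 16.7% after NHD and 11.7% with PE. Endothelial markers had 1 of 10 called higher before and after NHD and 2 with PE, smooth muscle and pericyte markers 1 of 9 in each direction after NHD and 2 higher and 1 lower with PE, and leukocyte markers 0 of 11 in any comparison. Of all genes, 3.75% were called higher before NHD, and 16.3% were called lower after NHD and 11.9% with PE. The before NHD call was lost without control replicate 1 or 3. Myocyte marker and subunit levels went together on some arrays and apart on others, and their relation was not tested. Control arrays were lowest in both, at 12.57 to 12.58 and -0.019 to 0.011. Before NHD replicates 3 and 5 had marker means of 12.60 and 12.72 and member medians of 0.090 and 0.044. After NHD replicate 2 was highest in both, at 13.14 and 0.53. After NHD replicate 4 and before NHD replicate 4 had myocyte marker means of 13.04 and 13.03, beside 13.04 on before NHD replicate 6, while their median members stood 0.058, 0.076 and 0.38 above control. Before NHD replicates 2 and 6 had nearly the same member median and fibroblast marker means of 7.55 and 9.76.

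**Figure D5:**
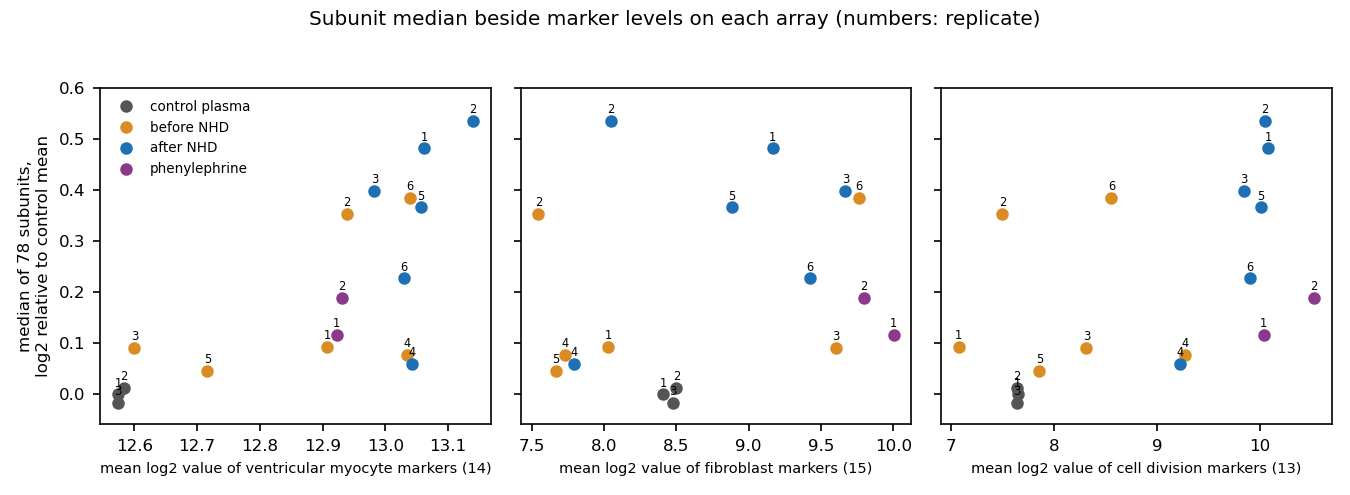
Median of the 78 members on each array, in log2 units above the control mean, against the mean log2 value of 14 ventricular myocyte, 15 fibroblast and 13 cell division markers; colours are groups and numbers replicates. Before and after NHD replicates 4 combine high myocyte marker levels with low subunit medians, and before NHD replicates 2 and 6 share a subunit median at low and high fibroblast levels. The control arrays are lowest in myocyte marker level and subunit median, and after NHD replicate 2 is highest in both. The relation of markers and subunits was not tested.

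Some members cannot be read with certainty as single genes. For 37 of the 78 the RefSeq table names at least 1 pseudogene, whose sequence the probes may also read, and 2 members, Cox6c-ps1 and Ndufs6-ps1, are themselves named as pseudogenes. Neither of these 2 was called in any comparison. Of the 12 members with more than 1 probe set, calls differed between probe sets for Atp5mc2 before NHD alone.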

How the data were processed

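RNA of 17 rat myocyte cultures was measured on Affymetrix arrays. The authors deposited log2 values, and RMA is the method named per the submitters' processing notes (no version is given there). RMA makes array distributions alike, so that a shift of most genes would be removed. Differences near the floor and the ceiling of the arrays may be compressed, which was not tested. Each of the 17 columns was matched to its sample by identifier.

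Symbols came from the platform's annotation, with 1 for 15310 probe sets, several for 323 and none here for 13581. Symbols updated through the RefSeq gene table (GRCr8) gave the same 78 members. No coordinates were used but those of the RefSeq upstream windows. Differences and two-sided p-values are from limma 3.58.1 in R 4.3.3 (lmFit and eBayes), as 1 model of all 17 arrays in 4 groups with 13 residual degrees of freedom and 3.32 prior ones, and with Benjamini-Hochberg adjustment over 29214 probe sets. Errors are standard errors of that fit. It pools the spread of all groups, so that comparisons with PE rest largely on the other groups. The procedure was tested on simulated data. Members and gene lists were chosen with earlier results of these data known. Named genes were, per comparison, up to 10 called members in each direction by size (filled to 5 by smallest p), a fixed set of core and isoform genes, and up to 4 called genes of each list; other genes were named for completeness after their values were seen. Alternatives were fits of the 2 groups alone, a trended robust prior, array weights, a second quantile normalization, the brighter probe sets, 1 probe set or the mean of all probe sets per gene, the replicate number as a block, array SD as a term, and leaving out arrays. PE against after NHD was added after the data were seen.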

Additional observations from a re-analysis of the deposited data

Results flagged for a closer look

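Of 80 tests for a sample far from the others of its group, 2 found one, and chance alone gives about 1 in 20. Cox6b2 read 6.77 on after NHD replicate 4, where the other 5 after NHD arrays read 7.59 to 8.03. Atp5f1b read 13.41 on before NHD replicate 2, where the other 5 before NHD arrays read 13.29 to 13.33. After NHD replicate 4 was also the array of its group with the lowest subunit median.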

How the results depend on the processing

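Between after and before NHD, before NHD and control, after NHD and control, PE and control, and PE and after NHD, the members called numbered 0, 6, 35, 14 and 2. Array weights gave 5, 26, 55 (1 of them lower), 31 (5 lower) and 22 (20 lower); of all 14506 genes it called 921, 2080, 3675, 3327 and 783 higher and 1088, 1757, 4497, 3761 and 1007 lower, so that the 5 members are about the share of all genes. Fits of the 2 groups compared alone gave 0, 0, 39, 24 (4 lower) and 5 (all lower), with 14 and 21 members at an unadjusted p below 0.05 in the first 2 of these. Of all 14506 genes they called 0, 0, 2893, 2926 and 249 higher and 0, 0, 2931, 2645 and 356 lower. For before NHD against control, brighter probe sets gave 11 of 76 members, where 801 of 8554 genes were called higher and 384 lower. A second quantile normalization gave 10, where 562 of all genes were called higher and 373 lower. Without the samples numbered 4, after against before NHD gave 7. With array SD as a term, before NHD against control gave 0 and after NHD against control 15, where 1 and 1009 of all genes were called higher. With 1 array left out, the counts ran from 0 to 10, 0 to 19, 22 to 46, 5 to 15 and 0 to 3. Outside array weights, no member was called lower in the first 3 comparisons under these settings.

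The replicate number as a block gave 0, 16, 43, 16 (3 lower) and 3 (all lower). Of all genes it called 88, 1228, 2787, 2295 and 233 higher and 119, 830, 2637, 2288 and 252 lower. Same-numbered before and after samples deviated together with correlations of 0.099, 0.42, 0.60, 0.57, -0.025 and 0.25 for numbers 1 to 6, and only 3 of the 6 before samples correlated best with their own number, so that the numbers were not taken to pair the samples.

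Among named members, signs turned only where the difference was not called. With array weights, Sdhb after against before NHD was -0.022, Cox6a2 before NHD against control -0.00045, and PE against after NHD Ndufa4 -0.0018 and Cox8b -0.026. With a second quantile normalization, after against before NHD Cox4i1 was -0.0071 and Atp5f1b -0.016, and PE against after NHD Cox8a -0.0100. For PE against after NHD, the block gave Ndufa4 -0.053, Cox8a -0.029 and Cox8b -0.39, and leaving out the samples numbered 4 gave -0.031, -0.010 and -0.17, with Cox6a1 before NHD against control at -0.00081. With array SD as a term, Sdhc before NHD against control was -0.035, PE against control Uqcrc1 -0.00054 and Cox4i2 -0.068, and PE against after NHD Ndufs1 0.024, Uqcrc2 0.0037 and Atp5f1a 0.00050. With 1 array left out, after against before NHD Sdhb ran from -0.025 to 0.075 and Cox4i1 from -0.035 to 0.079, before NHD against control Sdhc from -0.013 to 0.049, Cox6a1 from -0.00081 to 0.052 and Cox6a2 from -0.032 to 0.058, PE against control Sdhd from -0.092 to 0.064 and Cox4i2 from -0.11 to 0.33, and PE against after NHD Ndufa4 from -0.031 to 0.083, Cox8a from -0.010 to 0.024 and Cox8b from -0.17 to 0.30. The cause of these changes was not tested. The small number of control and PE arrays limits all comparisons with them.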
